A study of Homo sapiens with 4 samples.

Results

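Histone H3.3 was examined at 9 genes that control the release of paused RNA polymerase II, chosen by name out of 62663 annotated genes (GENCODE release 44, hg38). They were *CDK9*, *CCNT1* and *CCNT2* (the kinase and the cyclins of P-TEFb), *RN7SK*, *HEXIM1* and *LARP7* (the 7SK particle), and *AFF4*, *ELL* and *ELL2* (the super elongation complex). All deposited intervals that overlapped one of these genes, or lay within 5 kb of any of its annotated transcription start sites (TSSs), were taken. This gave 86 intervals in untreated cells and 73 after UV-C.

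H3.3 was immunoprecipitated from wild-type MRC5 cells, a human lung fibroblast line, which the paper calls MRC5_VA and describes as immortalized with SV40. Untreated cells were compared with cells collected 3 h after 10 J/m2 of UV-C, with the same wild-type genotype, antibody and culture medium in both groups. DNA from 3 replicates was pooled before sequencing, so each condition has 1 H3.3 library and 1 list of intervals. Values of the lists are therefore set side by side as descriptions, without replicates and without a test. The input libraries of both conditions were not analysed here.

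After RNA polymerase II starts a transcript it commonly pauses just downstream of the TSS. P-TEFb, a cyclin-dependent kinase, phosphorylates the polymerase and the factors that hold it, and the polymerase moves on into the gene. Much of P-TEFb is kept inactive in a particle built on the 7SK RNA, which *RN7SK* encodes and LARP7 stabilizes, with HEXIM1 as the protein that blocks the kinase. Stress such as UV light is known to free P-TEFb from this particle, and the super elongation complex carries the active kinase to genes. H3.3 is the histone H3 variant that is deposited outside replication, at active promoters and along transcribed genes among other sites.

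The lists held 88822 distinct intervals in untreated cells and 77183 after UV-C on chromosomes 1 to 22, X and Y, with a median width of 435 and 449 bp. Their median GC content was 49.2% and 50.8%. The lists carry no read numbers, so the depth of each library is unknown here. Of 13 fibroblast markers, 9 had an interval within 1 kb of a TSS in both lists and 2 (*PDGFRA* and *PRRX1*) after UV-C only, while *COL3A1* and *THY1* had none in either. Of the lung mesenchyme markers *FOXF1* had one in both lists, and *TBX4* and *TBX5* had none. None of 5 epithelial, 2 endothelial and 3 blood markers had an interval within 1 kb of the canonical TSS (the start of the Ensembl canonical transcript), although *CDH1*, *SFTPC* and *SFTPB* had one at another start in both lists.

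A stretch next to a start that H3.3 covered after UV-C only is shown for *CDK9* and for *ELL*. The first lies just upstream of the first annotated base of *CDK9*, at chr9:127785379-127785678 on the plus strand, and was inside an H3.3 interval after UV-C only. The second lies in the first intron of *ELL*, at chr19:18521532-18521831 on the minus strand, around the summit of an interval found after UV-C only. Both are read 5′ to 3′ from hg38. Capitals mark matches to the GC box (GGGCGG) or the TATA box (TATAAA) on either strand, with overlapping matches merged.
*CDK9* upstream: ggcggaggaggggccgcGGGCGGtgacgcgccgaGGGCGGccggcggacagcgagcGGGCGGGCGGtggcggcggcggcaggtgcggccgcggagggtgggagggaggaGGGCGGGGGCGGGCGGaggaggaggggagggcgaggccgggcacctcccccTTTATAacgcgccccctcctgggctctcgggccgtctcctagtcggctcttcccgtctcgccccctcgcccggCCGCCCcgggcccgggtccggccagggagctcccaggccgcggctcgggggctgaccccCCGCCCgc
*ELL* intron: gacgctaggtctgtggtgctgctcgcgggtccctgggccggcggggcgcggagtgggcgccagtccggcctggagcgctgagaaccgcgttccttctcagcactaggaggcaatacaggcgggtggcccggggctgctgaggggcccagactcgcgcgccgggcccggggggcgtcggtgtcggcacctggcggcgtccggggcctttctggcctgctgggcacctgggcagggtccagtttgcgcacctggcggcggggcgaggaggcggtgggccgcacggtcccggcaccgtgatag
The *CDK9* sequence was 82.3% GC with 43 CpG dinucleotides, 9 GC boxes and 1 TATA box, the latter on the minus strand. The *ELL* sequence was 75.0% GC with 34 CpG dinucleotides and held none of the 7 motifs searched. A GC box was found in 45.0% and a TATA box in 11.5% of 35116 RefSeq promoter windows of the same length (GRCh38.p14), whose median GC content was 58.7%.

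Within 1 kb of the canonical TSS, 6 of the 9 genes had an H3.3 interval in untreated cells and 7 after UV-C. Those 6 were *CDK9*, *CCNT1*, *CCNT2*, *HEXIM1*, *AFF4* and *RN7SK*, and each of them also had one after UV-C (35.9% of protein-coding genes had one in both). *ELL* had one after UV-C only, while *LARP7* and *ELL2* had none in either list. Among 20033 protein-coding genes, 38.6% had such an interval in untreated cells and 46.6% after UV-C, with 10.7% after UV-C only and 2.67% in untreated cells only. Counted over any annotated TSS, which includes starts deep inside a gene, the direction turned. All 9 genes then had an interval in untreated cells and 7 after UV-C, with *LARP7* and *ELL2* in untreated cells only and no gene after UV-C only. The shares of protein-coding genes were then 48.0% and 54.0%, with 44.8% in both lists, 9.20% after UV-C only and 3.20% in untreated cells only (24.9% and 27.2%, with 5.21% and 2.87%, of all annotated genes). By number there were 16 promoter intervals in untreated cells and 19 after UV-C, with a median GC content of 50.9% and 59.3%. Those within 1 kb of the canonical TSS numbered 9 and 13, at 62.6% and 59.3%. The part of GC content in these counts was not tested.

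**Figure D1:**
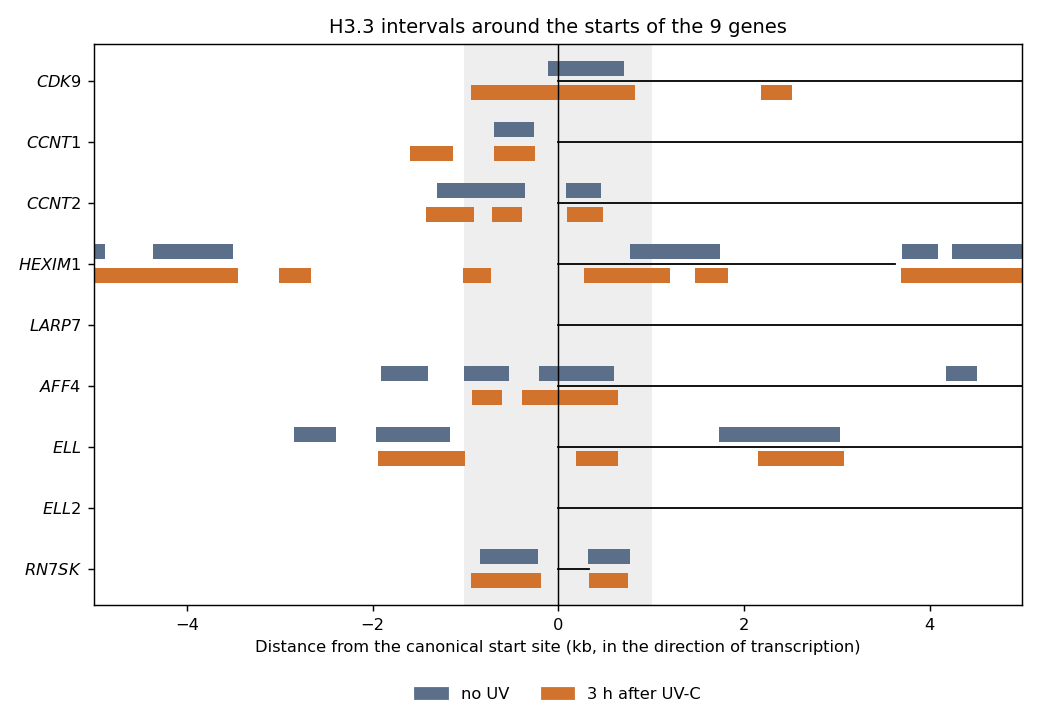
H3.3 intervals of untreated cells (blue) and of cells 3 h after UV-C (orange) around the canonical TSS of the 9 genes. The horizontal axis is the distance from the start in kb in the direction of transcription, the black line is the gene and the grey band is the window within 1 kb of the start. The interval of *CDK9* reaches farther upstream after UV-C, *ELL* has an interval just inside the gene after UV-C only, and *LARP7* and *ELL2* have none within 5 kb of this start.

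The length covered within 1 kb of the canonical TSS, out of 2001 bp, separated the genes further. *CDK9* had 819 bp in untreated cells and 1769 bp after UV-C, *HEXIM1* 223 and 996 bp, and *ELL* 0 and 462 bp. *AFF4* had 1287 and 1356 bp, *RN7SK* 1081 and 1164 bp, and *CCNT1* 435 and 436 bp. *CCNT2* was the one gene of the 9 with less covered after UV-C, at 1016 and 816 bp. Of all protein-coding genes 39.0% had more covered after UV-C and 10.2% less. For the 9876 protein-coding genes with an interval there in either list, the median was 440 bp in untreated cells and 668 bp after UV-C, the median change was 201 bp, and the 5th and 95th percentiles of the change were -315 and 769 bp. Of these 9876 genes 79.1% had more covered after UV-C and 20.7% less, and 2.05% had a change at least as large as that of *CDK9*. The change at *HEXIM1* was above that of 95.1% and that at *CCNT2* above that of 9.07% of the same genes.

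**Figure D2:**
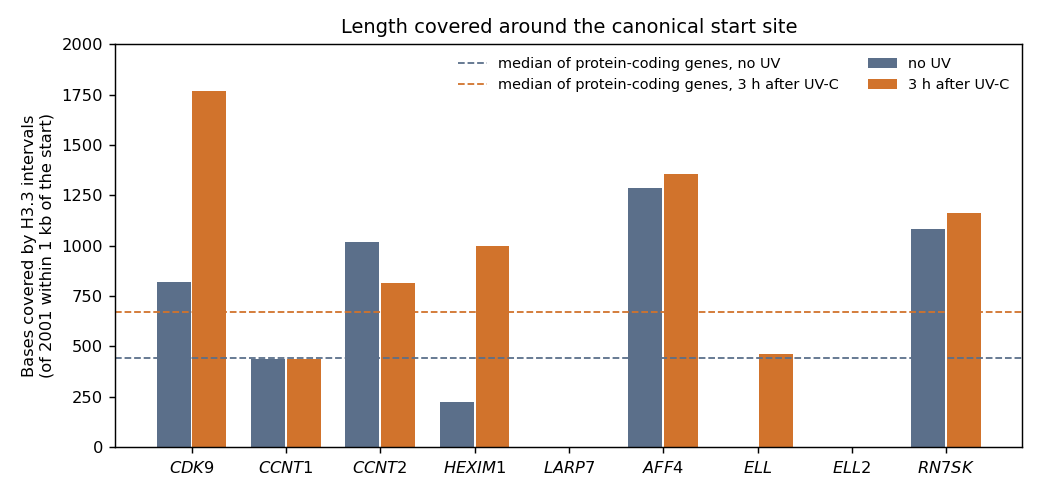
Bases covered by H3.3 intervals, out of 2001 within 1 kb of the canonical TSS, for each gene in untreated cells (blue bars) and after UV-C (orange bars), 1 library each. Dashed lines are the medians of the 9876 protein-coding genes with an interval there in either list, 440 and 668 bp. *CDK9* shows the largest change of the 9 genes, from 819 to 1769 bp, and *CCNT1* changes by 1 bp.

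*CDK9* (chr9:127785679-127790792, plus strand) encodes the kinase of P-TEFb. Its start interval spanned positions -106 to 712 bp relative to the canonical TSS in untreated cells, over the first exon, the first intron and the start of the second exon, and -942 to 826 bp after UV-C. The summit lay 299 bp downstream of the TSS in both lists. The -log10 q of the interval, a measure of its strength that depends on the depth of the library and is therefore ranked only within its own list, was 6.58 in untreated cells (percentile 63.7) and 39.3 after UV-C (percentile 95.9). The interval kept its summit and reached farther almost only on the upstream side, over the sequence shown above. Its GC content was 71.4% and 75.2%. The starts of the microRNA genes *MIR2861* and *MIR3960* lie within 1 kb of it, so the signal cannot be assigned to *CDK9* alone. After UV-C a 340-bp interval also lay at an internal start of *CDK9* (chr9:127788217-127788556, percentile 31.7). Beyond the end of the gene, an interval of 1181 bp in untreated cells was met by a pair of 303 and 810 bp after UV-C. Another of 606 bp in untreated cells overlapped no interval after UV-C. Of the whole gene 16.0% was covered in untreated cells and 29.8% after UV-C.

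*CCNT1* (chr12:48688458-48716998, minus strand) encodes cyclin T1, the more widely studied partner of CDK9. The interval next to its start kept its place to within 4 bp, at chr12:48716963-48717397 in untreated cells and chr12:48716959-48717394 after UV-C, percentiles 62.5 and 65.9. It lay wholly upstream of the canonical TSS, whose downstream side was not covered in either list. In both lists it covered another annotated start of *CCNT1*, at position 48716998. Of all protein-coding genes, 7.15% in untreated cells and 5.94% after UV-C were covered on the upstream side only within 1 kb of the canonical TSS. A 467-bp interval farther upstream was found after UV-C only (percentile 46.4), and a weak 333-bp intronic interval near an internal start in untreated cells only (percentile 2.7).

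*CCNT2* (chr2:134918235-134959342, plus strand) encodes cyclin T2. Its canonical TSS lay in a gap between H3.3 intervals in both lists. The gap ran from -356 to 86 bp relative to it in untreated cells (443 bp) and from -387 to 95 bp after UV-C (483 bp). Such a gap, with an interval on both sides within 1 kb, was found at 3.93% and 3.73% of protein-coding genes. The downstream interval (chr2:134918909-134919280, 372 bp, and chr2:134918918-134919308, 391 bp after UV-C) covered coding exon and intron and stood high in both lists, at percentiles 91.8 and 94.8. The upstream one was a single interval of 947 bp in untreated cells and a pair of 527 and 326 bp after UV-C, which accounts for the smaller covered length. Another annotated start, at position 134918847, lay in the same gap in both lists. The first annotated start of *CCNT2*, at position 134918235, was covered by an upstream interval in both lists. These upstream intervals also lie within 1 kb of the start of the antisense gene *CCNT2-AS1*.

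*RN7SK* (chr6:52995621-52995948, plus strand, an snRNA gene of 328 bp) encodes the 7SK RNA and is transcribed by RNA polymerase III. Intervals flanked it on both sides in both lists, and the gene itself was almost bare, with 8 bp covered in untreated cells and 0 after UV-C. The gap over the gene measured 539 bp in untreated cells and 520 bp after UV-C. The upstream interval was chr6:52994777-52995401 (625 bp, percentile 22.1) in untreated cells and chr6:52994686-52995432 (747 bp, percentile 73.0) after UV-C. The downstream one was chr6:52995941-52996396 (456 bp, percentile 76.7) and chr6:52995953-52996369 (417 bp, percentile 83.4). Of 1901 annotated snRNA genes, 9.84% had an interval within 1 kb in untreated cells, 9.57% after UV-C and 6.26% in both. Many near-identical copies of the 7SK sequence exist in the genome, and how the authors treated reads that map to several places is not given in the sources used here, so the bare stretch over the gene is uncertain. The start of *GSTA4* is also within 1 kb of these intervals, as is that of a second annotation record named 7SK.

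*HEXIM1* (chr17:45148475-45152099, plus strand) is a gene of a single exon that encodes the inhibitor of P-TEFb. The sequence before its start, chr17:45148225-45148474 on the plus strand, is shown because it was bare of H3.3 in both lists while the gene behind it was not. Capitals mark the TATA box, the CCAAT box (CCAAT) and the GC box on either strand.
*HEXIM1* promoter: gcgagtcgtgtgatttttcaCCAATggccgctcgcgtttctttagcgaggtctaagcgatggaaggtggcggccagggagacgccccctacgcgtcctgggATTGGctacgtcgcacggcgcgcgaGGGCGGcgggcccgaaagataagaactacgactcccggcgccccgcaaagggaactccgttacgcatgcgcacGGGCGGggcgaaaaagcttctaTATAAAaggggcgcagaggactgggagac
The TATA box lies 29 to 24 bp before the start, and the sequence also holds 2 CCAAT boxes and 2 GC boxes. A CCAAT box was present in 34.6% of all windows. In untreated cells the interval inside the gene was chr17:45149253-45150220, beginning 778 bp after the TSS (968 bp, percentile 82.6). After UV-C it was met by a pair, both overlapping it. The first began 278 bp after the TSS (chr17:45148753-45149683, 931 bp, percentile 72.8) and the second was 364 bp wide. A 300-bp interval upstream of the start (percentile 60.9) was present after UV-C only. The covered part of the gene was 26.7% and 35.7%. On the upstream flank, intervals of 281 and 868 bp in untreated cells were met by a single one of 1749 bp after UV-C (chr17:45143283-45145031, percentile 96.2), next to a 348-bp interval without a counterpart, and on the downstream flank intervals of 389 and 764 bp by one of 1379 bp (percentile 83.8). The upstream flank intervals, except the 348-bp one, overlap another gene, *ACBD4*, and the downstream ones overlap *HEXIM2-AS1*. The signal on these flanks therefore cannot be assigned to *HEXIM1*. An unnamed annotated gene (ENSG00000276728) also starts within 1 kb of the intervals at the *HEXIM1* start.

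*LARP7* (chr4:112637077-112657696, plus strand) encodes the protein that binds the end of 7SK RNA. Its only interval was a weak one in untreated cells, chr4:112653284-112653709, in an intron 977 bp from an internal start (426 bp, -log10 q 2.12, percentile 9.8). No interval lay within 5 kb of any of its 28 annotated starts after UV-C. Of all protein-coding genes 50.7% had no interval within 1 kb of the canonical TSS in either list. The bare stretch shown, chr4:112637252-112637455 on the plus strand, lies before an alternative start, inside the gene and downstream of the canonical TSS at position 112637143. Its GC box is in capitals.
*LARP7* alternative start: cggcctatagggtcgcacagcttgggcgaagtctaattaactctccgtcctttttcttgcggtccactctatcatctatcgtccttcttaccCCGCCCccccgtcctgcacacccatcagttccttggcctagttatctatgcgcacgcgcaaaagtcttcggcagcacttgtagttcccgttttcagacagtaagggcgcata
The 300-bp window from which it is taken was 57.3% GC, close to the median of all windows.

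*AFF4* (chr5:132875395-132963634, minus strand) encodes the scaffold of the super elongation complex. Its promoter, chr5:132963635-132963884 on the minus strand, is shown in contrast to the bare stretches of *HEXIM1* and *LARP7*, since H3.3 intervals covered most of it in untreated cells and all of it after UV-C. Capitals mark 3 GC boxes and 1 E-box (CACGTG, found in 7.26% of all windows).
*AFF4* promoter: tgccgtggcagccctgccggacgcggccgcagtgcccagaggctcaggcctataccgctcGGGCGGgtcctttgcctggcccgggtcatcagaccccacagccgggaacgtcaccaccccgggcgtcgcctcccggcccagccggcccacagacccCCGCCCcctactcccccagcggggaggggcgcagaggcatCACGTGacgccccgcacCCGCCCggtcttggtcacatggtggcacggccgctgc
The interval over the start was 813 bp in untreated cells (chr5:132963028-132963840, percentile 92.4, 71.6% GC) and 1032 bp after UV-C (chr5:132962988-132964019, percentile 96.0, 70.2% GC). Of the 300-bp promoter window 256 bp were covered in untreated cells and 300 bp after UV-C. The canonical TSS itself was covered at 17.6% and 28.2% of protein-coding genes, and *CDK9* and *AFF4* were the 2 genes of the 9 where it was. The divergent gene *AFF4-DT* starts within 1 kb of this interval and of a weaker one upstream (488 bp in untreated cells and 324 bp after UV-C). At internal starts the lists shared an interval of 496 and 300 bp, one of 489 bp was found in untreated cells only and one of 573 bp after UV-C only.

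*ELL* (chr19:18442663-18522116, minus strand) encodes an elongation factor that raises the speed of RNA polymerase II. The interval found after UV-C only, chr19:18521423-18521882, lay 188 to 647 bp after the canonical TSS within the first intron (460 bp, -log10 q 10.3, percentile 72.5, 74.3% GC). The promoter of *ELL*, chr19:18522117-18522320 on the minus strand, was not covered in either list. Its 2 GC boxes are in capitals.
*ELL* promoter: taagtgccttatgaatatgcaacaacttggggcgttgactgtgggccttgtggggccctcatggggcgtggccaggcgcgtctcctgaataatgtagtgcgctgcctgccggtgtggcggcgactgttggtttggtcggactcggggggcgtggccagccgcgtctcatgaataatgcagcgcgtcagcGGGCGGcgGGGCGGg
The interval upstream of it was 794 bp in untreated cells and 940 bp after UV-C (percentiles 80.8 and 67.1). After UV-C its nearer edge was at -999 bp from the canonical TSS, just inside the 1-kb limit, and in untreated cells at -1167 bp, outside it. At an internal start near the end of the gene the lists shared an interval of 286 and 382 bp (percentiles 75.7 and 86.8), and a 396-bp interval at another was found after UV-C only (percentile 33.3). Just beyond the end of the gene an interval of 1001 and 1047 bp was shared (percentiles 82.2 and 89.6), within 1 kb of the start of an unnamed gene (ENSG00000268199).

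*ELL2* (chr5:95885098-95961851, minus strand) encodes a relative of ELL. Its main start was bare in both lists. The nearest interval lay 6720 bp downstream in untreated cells (chr5:95954307-95955131) and 7080 bp downstream after UV-C (chr5:95954331-95954771). The intervals that counted as promoter intervals in untreated cells were 2 of 281 bp at internal starts, chr5:95942915-95943195 (percentile 63.0, 36.7% GC) and chr5:95941932-95942212 (percentile 20.3, 32.4% GC), neither of which had a counterpart after UV-C.

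Along the gene bodies, defined as inside the gene and more than 1 kb from any of its starts, the 9 genes held 60 intervals in untreated cells (29779 bp) and 48 after UV-C (25399 bp). Over all protein-coding genes there were 51560 and 42224, of which 45.0% were of the UV-C list. With flanks included the 9 genes held 70 and 54 intervals outside promoters, but 38 and 37 when only intervals with a -log10 q of 5 or more were counted. Most of those at the 9 genes lay in *AFF4*, *ELL* and *ELL2*, the longest of them.

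*ELL* had 19 gene body intervals in untreated cells and 20 after UV-C, *AFF4* 15 and 12, and *ELL2* 18 and 10. The UV-C share was 51.3% for *ELL* (exact Clopper-Pearson 95% interval 34.8 to 67.6, counting error only), 44.4% for *AFF4* (25.5 to 64.7) and 35.7% for *ELL2* (18.6 to 55.9), so the counting intervals of all 3 overlap. The median share was 45.5% over the 2924 protein-coding genes with at least 10 gene body intervals, of which 65.9% had fewer after UV-C. A share as low as that of *ELL2* or lower was found at 15.1% of these genes. The shorter *CCNT2* had 5 and 2 gene body intervals, *CCNT1* 3 and 3, *HEXIM1* 0 and 1, and *CDK9*, *LARP7* and *RN7SK* none. That of *HEXIM1* after UV-C overlapped an interval of untreated cells that counted as a promoter interval.

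The long elongation factor genes were richer in H3.3 intervals than most genes of at least 20 kb in both lists. *ELL* was covered over 13.4% of its length in untreated cells and 15.9% after UV-C, *ELL2* over 12.9% and 6.22%, and *AFF4* over 9.60% and 9.55%. The median of the 11651 protein-coding genes of at least 20 kb was 1.42% and 1.35%. *ELL* stood above 92.4% and 94.7% of these genes, *ELL2* above 91.9% and 82.4%, and *AFF4* above 87.9% and 89.1%. *CCNT1* (6.42% and 3.10%) and *CCNT2* (5.50% and 3.16%) stood above 81.0% and 78.1% of them in untreated cells and 68.9% and 69.3% after UV-C. *LARP7*, with its single interval, had 2.07% in untreated cells, above 57.3% of them, and 0% after UV-C.

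In *ELL*, the strongest gene body interval of untreated cells (chr19:18459433-18459878, -log10 q 25.1, percentile 94.8) had a counterpart of percentile 64.5 after UV-C with the same first base. A 2151-bp intronic interval of untreated cells (chr19:18454141-18456291) was met after UV-C by a pair of 767 and 372 bp, and intervals of 443 and 897 bp by a single one of 1615 bp that covers a coding exon. The 1300-bp interval that begins 1734 bp after the start matched one of 931 bp (percentiles 87.0 and 83.5). Splitting and joining of this kind changes the number of intervals without a change in place.

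In *AFF4*, the strongest gene body intervals of untreated cells (chr5:132949458-132949953 and chr5:132947930-132948507, percentiles 88.1 and 87.7) both had counterparts after UV-C (percentiles 69.8 and 78.2) and lie by the start of a pseudogene, *ATP6V0E1P1*. After UV-C the strongest was chr5:132884168-132884700 near the far end of the gene (percentile 79.2), whose counterpart in untreated cells ranked at percentile 15.4.

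In *ELL2*, 8 of all 20 intervals of untreated cells had a counterpart after UV-C and 12 did not. Over the whole untreated list 57.3% of intervals had a counterpart. The 12 had a median -log10 q of 3.73 and a GC content of 40.0%, against 8.31 and 45.2% for the 8. The 2 strongest of untreated cells, chr5:95951065-95951512 and chr5:95954307-95955131 (percentiles 90.7 and 85.2), were present after UV-C at percentiles 46.3 and 16.8. The next, chr5:95893385-95893769 (percentile 85.0), had no counterpart. Over the whole untreated list, intervals without a counterpart also had a lower median -log10 q (3.73 against 7.29) and a lower GC content (48.1% against 50.3%), and the part of either in the *ELL2* result was not tested.

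Over the 9 genes, 48 of 86 intervals of untreated cells (55.8%, 44.7 to 66.5) overlapped an interval of the UV-C list, and 49 of 73 intervals after UV-C (67.1%, 55.1 to 77.7) overlapped one of untreated cells. The same shares of all intervals were 57.3% and 65.6%, inside these limits. When only intervals with a -log10 q of 5 or more were kept, the order turned, to 70.2% of untreated and 61.5% of UV-C intervals. The 38 without a counterpart in untreated cells had a median percentile of 29.5 and a GC content of 46.8%, and the 24 after UV-C 44.6 and 51.4%.

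Other genes of transcription elongation, a list of 49, were examined at their starts in the same way. Within 1 kb of the canonical TSS 26 had an interval in untreated cells and 34 after UV-C, 25 of them in both lists, 9 after UV-C only, 1 in untreated cells only and 14 in neither. These 9 are 18.4% of the list, beside 10.7% of protein-coding genes. They were *ICE1* (little elongation complex), *NELFA* and *NELFCD* (the pausing factor NELF), *PAF1* and *IWS1* (the PAF complex and a partner), *CDK7* and *CDK12* (kinases of the polymerase tail), *SUPT16H* (the histone chaperone FACT) and *HNRNPA2B1* (a 7SK-binding protein). The 1 in the other direction was *CCNH*, the cyclin of CDK7 (2.04% of the list, beside 2.67% of protein-coding genes). Of protein-coding genes 35.9% had an interval in both lists and 50.7% in neither, beside 25 and 14 of the 49. An interval in either list was thus present at 35 of the 49, beside 9876 of 20033 protein-coding genes. The part of this difference in the count after UV-C only was not tested. Over any TSS the counts were 38 and 41 of the 49, beside 48.0% and 54.0% of protein-coding genes. *MLLT1*, *ICE1*, *IWS1* and *CDK12* had an interval after UV-C only and *LEO1* in untreated cells only. These 4 are 8.16% and the 1 is 2.04% of the list, both below the 9.20% and 3.20% of protein-coding genes.

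The covered length at the canonical start was larger after UV-C at 29 of the 49 genes and smaller at 6. *SUPT16H* had 0 bp in untreated cells and 1154 bp after UV-C, *NELFA* 0 and 849 bp, and *ICE1* 0 and 790 bp. The strongest promoter interval of *SUPT16H* after UV-C, 323 bp from this start, had a -log10 q of only 4.47 (percentile 35.9). In untreated cells its strongest was at an internal start, at 5.70 (percentile 57.1). With a -log10 q of at least 5 over any TSS, *SUPT16H* had an interval in untreated cells only. *CDK13*, a kinase of the polymerase tail, had 1449 and all 2001 bp. *MEPCE*, which caps 7SK RNA, had 412 and 608 bp, while *HEXIM2*, the relative of *HEXIM1*, had none at this start in either list. *DDX21*, a helicase that binds 7SK, had 589 and 381 bp, *CCNH* 281 and 0 bp, and *TCEA1*, an elongation factor that rescues stalled polymerase, 1453 and 1252 bp. Among the 35 genes of the list with an interval at this start in either list, 82.9% had more covered after UV-C and 17.1% less, near the 79.1% and 20.7% of all protein-coding genes with one.

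**Figure D3:**
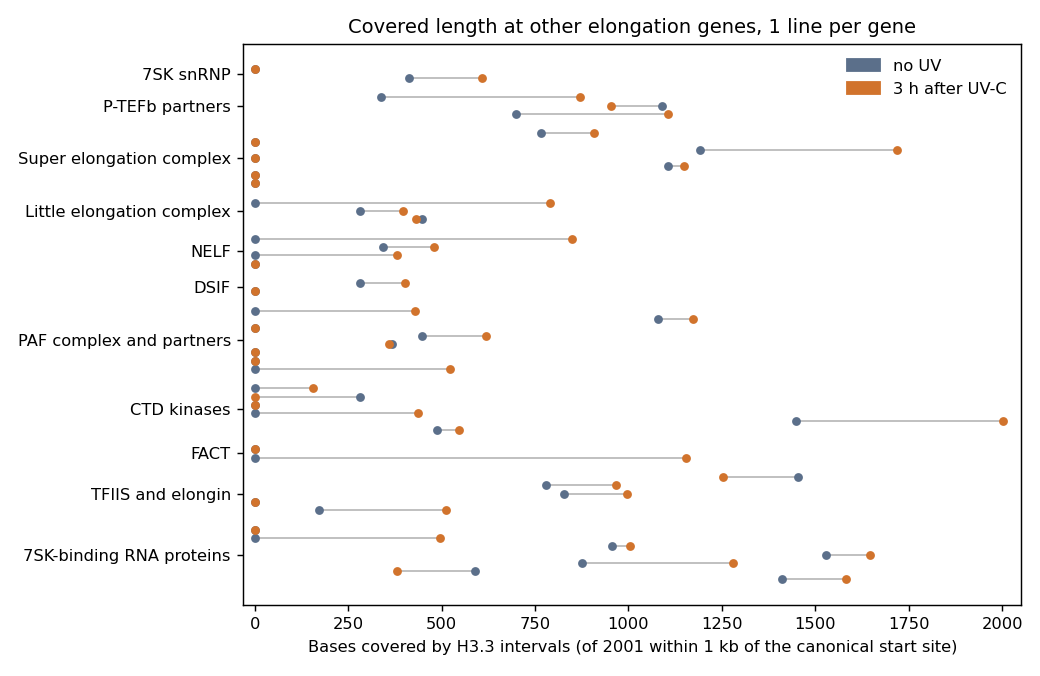
Bases covered by H3.3 intervals, out of 2001 within 1 kb of the canonical TSS, at 49 other elongation genes grouped by complex, with untreated cells in blue and UV-C in orange joined by a line for each gene. The orange point lies to the right of the blue one for 29 genes and to the left for 6, and the points coincide for the rest, at 0 bp in both lists.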

How the data were processed

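H3.3 ChIP-seq was measured in untreated and UV-C irradiated MRC5 cells, grouped by the sample labels, with 1 library per condition. Per the labels and the paper's methods, the authors demultiplexed reads with bcl2fastq 2.17, trimmed them with Trimmomatic (3.36 in the submitters' processing notes), aligned them with BWA 0.7.12 to hg38, discarded duplicates (Biobambam2) and called peaks (MACS). The notes list MACS 1.4.2, but the deposited format is that of later versions; the control and threshold for H3.3 are not given in the sources used here. Each deposited row holds a score, a fold (the linear ratio of signal over local background), a -log10 p-value and a -log10 q-value, and a summit position, all computed by the authors within 1 library. The lowest deposited -log10 q was 1.30 in both lists. These strengths depend on depth, which is unknown here, and were only ranked within a list; the score, fold and -log10 p-value support no result.

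Rows (102949 untreated, 89740 UV-C) that lay on the main chromosomes (102924 and 89709) were merged where they named the same interval. Chromosome lengths were checked against hg38. Intervals were classed as promoter (within 1 kb of a TSS of the gene), gene body, or flank (within 5 kb of a TSS). Counterparts overlapped by at least 1 bp. Motifs were matched exactly on both strands, overlaps included, for the TATA box, CCAAT box, GC box, E-box, ETS, CRE and NRF1 motifs. RefSeq promoter windows (GRCh38.p14) matched 7 of the 9 genes; *ELL2* and *RN7SK* had none. The sequences printed stop before the first exon of a protein-coding gene.

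The 9 genes and the lists were chosen with earlier results of these data known. All 9 are named with their intervals, as are genes of the elongation list with an interval in 1 list only and annotated starts near a member's interval; other genes of that list, and the choice of sequences and of intervals described singly, were picked after their values were seen. No test between conditions was possible, so there are no p-values. The 95% intervals of shares are exact (Clopper-Pearson) and cover counting error alone. The overlap procedure was tested on simulated intervals. Alternatives were other TSS windows, summit distance, -log10 q thresholds, equal numbers of rows, canonical transcripts, joined intervals and a 50% overlap. Software was matplotlib 3.10.9, scipy 1.17.1, pandas 2.3.3 and numpy 2.4.6, under Python 3.11.15.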

Additional observations from a re-analysis of the deposited data

How the results depend on the processing

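Counts of genes with a promoter interval in 1 list only depended on the definition of a promoter. For the 9 genes, 0 had one after UV-C only and 2 in untreated cells only, a difference of -2. The difference reversed to 1 when the window was 0.5 kb or distance was taken from the nearest summit (2 after UV-C only, *ELL* and *HEXIM1*, and 1 in untreated cells only, *ELL2*), and also to 1 with canonical transcripts (1, *ELL*, and 0). It was -1, with 1 gene in untreated cells only, with windows of 2 and 5 kb (*LARP7*) and with a -log10 q of at least 3, of at least 5, or equal numbers of rows (*ELL2*). In the elongation list, 4 genes had one after UV-C only and 1 in untreated cells only. The first count was 2 with windows of 2 and 5 kb and 9 with canonical transcripts, and the second 0 with a window of 0.5 kb or with summit distance and 5 with a -log10 q of at least 5. Intervals outside promoters at the 9 genes (gene body and flank) numbered 70 in untreated cells and 54 after UV-C, a difference of -16, which was -8 with equal numbers of rows and also with a -log10 q of 3 or more. With a -log10 q of at least 5 they numbered 38 and 37, a difference of -1, and the share with a counterpart went from 55.8% to 70.2% in untreated cells and from 67.1% to 61.5% after UV-C, which turns their order. The window, summit and canonical alternatives count fewer or more starts by construction. The other 67 values under an alternative kept their direction and moved by no more than the limit for their kind (1.5 times for a count, the counting interval for a share). No paired analysis was possible because each condition has 1 library, and for the same reason no replicate could be left out. The depth of the libraries is unknown here, so an interval in 1 list only cannot be told apart from a difference in depth.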
